A study of Mus musculus with 5 samples.

Results

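Of the 23420 genes counted, 10 were examined that are known in the blood plasma as fibrinogen, complement and acute phase genes or as secreted defence proteins of epithelia. They were the 3 fibrinogen chain genes Fga, Fgb and Fgg, the initiator of coagulation F3, the complement genes C3 and Cfb, and Lcn2, Ltf, Lrg1 and Chi3l1. They were taken from the table of counts by gene symbol. The 10 genes were selected on their counts in these 5 libraries, as known from earlier results, so their levels and differences are a description and no test was made on them. CPM here stands for counts per 1e6 of the scaled library. Of the 10 genes, 9 averaged 1 CPM or more, and Fgb had no counts in any library.

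The libraries came from the luminal layer of the uterus of pregnant wildtype C57BL/6N mice, cut out by laser microdissection, with day 1 of pregnancy as the day of the vaginal plug. There was 1 library for each of 5 conditions. The conditions were the mornings of day 3 and day 4 (D3 morning, D4 morning), the evening of day 4 (D4 evening), and the morning of day 5. On day 5 the layer was taken apart from the attached embryo (D5 away) and at the embryo (D5 around), and the labels of this pair also read Mpole and Ampole. The paper uses M and AM for the mesometrial and anti-mesometrial poles of the uterus. Distance from the embryo and pole therefore cannot be told apart in this pair, and the labels of the earlier libraries name no pole. D3 and D4 morning precede the attachment of the embryo, D4 evening is the time just before it, and the day 5 layers follow it. The mice of day 5 received 1% Chicago blue to mark the implantation sites. None of the groups carried a transgene or a deletion, and the ages of the mice were not given in the sources used here. The libraries of Lif-deleted and Lif-treated uteri were not analysed here. No condition was replicated, so differences could not be set against the spread between replicates, and whether RNA of several mice was pooled in these libraries is not given in the sources used here.

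Fibrinogen is built from pairs of 3 chains, Aα, Bβ and γ, which Fga, Fgb and Fgg encode, and thrombin turns it into the fibrin of a clot. Tissue factor, encoded by F3, starts the cascade that makes thrombin, while C3 is the protein at which all complement pathways meet and factor B forms part of the enzyme that cleaves it. The liver is the main source of fibrinogen and of many complement and acute phase proteins, and cytokines of the interleukin 6 family with Stat3, C/EBP and NF-kB factors are known to drive their genes in inflammation. Several of these genes are also active in epithelia, and Ltf and C3 are classical estrogen-responsive genes of the uterine epithelium.

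Total counts ranged from 15334674 to 19529491 per library, 15274 to 15888 genes were counted at least once, and the features Rn45s and Lars2 took 15.0% to 23.2% of the counts. The 7 epithelial markers Krt8, Krt18, Krt19, Krt7, Epcam, Cdh1 and Cldn4 were counted in every library, with a summed level between 2843 and 5632 CPM. The D5 around library stood apart from the others in the markers of other cells. Of the 10 embryo markers left without Krt18 and Sox17, all were counted in D5 around, Afp with only 1 count. Their summed level was 108 CPM, against 5.41 to 13.4 CPM in the other 4 libraries. Tfap2c, Eomes and Elf5 made 39.1, 35.4 and 18.4 CPM of it, and were also counted in the other 4 libraries. There Pou5f1, Cdx2, Gata4 and Nanog were at 0 in each, against 68, 22, 54 and 10 counts in D5 around. The 6 smooth muscle markers summed to 394.7 CPM in D5 around, of which 353.6 CPM were Des, against 10.9 to 31.8 CPM elsewhere. The 6 endothelial markers summed to 99.8 CPM in D5 around, of which 71.4 CPM were Cdh5, against 12.3 to 45.6 CPM elsewhere. Of these 6, 2 were higher by over 2-fold in D5 around than in D5 away, and 2, Kdr and Emcn, were lower. The 6 gland markers summed to 31.2 CPM in D5 around, of which 17.7 CPM were Lif, against 1.83 to 6.01 CPM elsewhere. The paper describes Lif in the stroma around attached embryos as well. From D4 morning to D5 around, 3 gland markers were higher and 2, Foxa2 and Cxcl15, were lower. Between the day 5 layers, all 5 gland markers kept were higher in D5 around by over 2-fold. The 8 stromal markers were present throughout, at 353.5 CPM in D5 around and 464.7 to 553.2 CPM elsewhere. Within this sum the genes differed in direction. From D4 morning to D5 around, 2, Hand2 and Col1a1, were higher by over 2-fold and 4, Col1a2, Col3a1, Dcn and Lum, were lower. Hand2 had 79 counts in D4 morning and 2282 in D5 around, where it made 132.5 CPM of the sum. Values of D5 away are therefore set beside those of D5 around.

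The 3 fibrinogen genes lie side by side on chromosome 3, in the order Fgg, Fga and Fgb, within 41.9 kb of GRCm38. Fgg and Fga are on the plus strand and Fgb is on the minus strand, with 11.1 kb between Fgg and Fga and 8.7 kb between Fga and Fgb. The 250 bases before the RefSeq start of these genes are shown because neighbours with a shared role had such different counts, and that of Lcn2 because it reached the highest level per length of the 10 genes. The sequences are from RefSeq GRCm38.p6, written 5′ to 3′ on the strand of the gene, at chr3:83007474-83007723 (plus) for Fgg, chr3:83025903-83026152 (plus) for Fga, chr3:83049864-83050113 (minus) for Fgb and chr2:32387740-32387989 (minus) for Lcn2. Capitals mark every match, on either strand, to the motifs TTCNNNGAA (STAT), TTGCNNAA (C/EBP), GGG and CC with any 5 bases between them (NF-kB), and GGTCA and TGACC with any 3 bases between them (estrogen response element).
Fgg: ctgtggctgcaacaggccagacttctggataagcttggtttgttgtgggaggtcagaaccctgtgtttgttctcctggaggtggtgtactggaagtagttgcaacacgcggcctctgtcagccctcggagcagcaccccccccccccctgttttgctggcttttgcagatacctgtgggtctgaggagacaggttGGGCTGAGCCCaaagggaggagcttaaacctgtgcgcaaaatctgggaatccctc
Fga: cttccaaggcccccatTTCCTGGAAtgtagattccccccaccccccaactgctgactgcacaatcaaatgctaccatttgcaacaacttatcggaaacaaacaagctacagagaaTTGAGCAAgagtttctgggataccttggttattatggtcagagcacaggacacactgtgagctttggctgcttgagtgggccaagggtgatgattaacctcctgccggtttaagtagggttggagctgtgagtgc
Fgb: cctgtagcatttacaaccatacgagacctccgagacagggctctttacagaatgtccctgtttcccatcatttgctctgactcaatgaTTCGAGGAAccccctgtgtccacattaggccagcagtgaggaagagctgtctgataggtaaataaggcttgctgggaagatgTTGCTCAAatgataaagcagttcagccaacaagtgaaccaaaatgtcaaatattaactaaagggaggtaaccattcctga
Lcn2: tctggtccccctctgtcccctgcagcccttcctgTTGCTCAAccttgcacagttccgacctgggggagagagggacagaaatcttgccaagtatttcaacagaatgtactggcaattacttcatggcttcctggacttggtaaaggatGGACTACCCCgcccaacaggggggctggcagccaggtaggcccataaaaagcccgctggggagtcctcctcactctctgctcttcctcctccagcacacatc

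Upstream windows were matched for 9 of the 10 genes, all but Cfb. The STAT motif was found in the windows of Fga, 234 bases before the start, and of Fgb, 162 bases before it. It was in 2 of 9 windows, and in 7.02% of the 32851 mouse windows of this length. The C/EBP motif was in 5 of 9 windows, those of Fga, Fgb, C3, Lcn2 and Ltf, against 9.56% of all windows. In Fga it lay 135 bases before the start, in Fgb 80 bases and in Lcn2 216 bases. The loose NF-kB motif was in 7 of 9 windows, all but those of Fga and Fgb, against 45.8% of all windows, and in Fgg both matches overlap, 55 and 54 bases before the start. The estrogen response element was in none of the 9 windows and in 0.0639% of all windows. A match is a stretch of letters and no measure of binding. The RefSeq start is 172 bases before the first counted base of Fgg, 73 bases before that of Fgb and 248 bases before that of Chi3l1.

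Fgg and Fga went from no counts in the earliest 2 libraries to high counts on day 5, while Fgb was not counted at all. Fgg, the γ chain gene (chr3:83007896-83015049), had 0 counts in D3 morning and D4 morning, 12 in D4 evening, 925 in D5 away and 4571 in D5 around. Fga, the Aα chain gene (chr3:83026153-83033617), had 0, 0, 9, 490 and 3621 counts in the same order. Both genes were therefore absent from the counts of the earlier times, near the floor of 3 counts in D4 evening and high in both day 5 layers. Fgb, the Bβ chain gene (chr3:83042305-83049790), had 0 counts in all 5 libraries, which allows at most 3 counts in each, or 0.161 to 0.190 CPM. GENCODE vM21 extends Fgb at its 3′ end to base 83040141, and reads beyond the counted bases there would not enter these counts. Floors and intervals cover counting error only, since amplified reads without molecular identifiers are not independent molecules.

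From D4 morning, Fgg was at least 297-fold higher in D5 away and at least 1589-fold higher in D5 around. For Fga the bounds were at least 157-fold and at least 1259-fold. These bounds set the D4 morning library at 3 counts. On the log2 CPM scale (prior count 2), 7 of the 12915 genes kept had a larger difference than Fgg in D5 away, and 5 had a larger one in D5 around. Between the day 5 layers, Fga was 8.00-fold higher in D5 around (log2 difference 3.00, interval 2.86 to 3.14) and Fgg 5.35-fold higher (2.42, 2.32 to 2.52). Intervals are exact 95% Clopper-Pearson intervals of the ratio of counts. From D4 evening to D5 away, the log2 difference was 5.83 for Fgg (5.22 to 6.99) and 5.27 for Fga (4.59 to 6.67). The step from D4 morning to D4 evening was small in counts. Set against 3 counts, Fgg was 4.54-fold and Fga 3.41-fold higher. The exact intervals begin lower, at log2 differences of 1.66 for Fgg and 1.16 for Fga.

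Per length (RPKM, the CPM per kilobase of the exonic length in the table), Fgg was above Fga wherever both were counted. The RPKM ratio of Fgg to Fga was 4.16 in D5 away (3.73 to 4.66), 2.78 in D5 around (2.67 to 2.91) and 2.94 in D4 evening (1.14 to 7.90), where it rests on 12 and 9 counts. The intervals of the day 5 layers do not overlap, but they cover counting error only. Whether the ratio differs between the layers was not tested. Over its counted bases, Fgb set at its floor was 1574-fold below Fgg and 565-fold below Fga in D5 around. In D5 away it was 318-fold and 76.5-fold below them. In D5 around, Fgg reached 174.3 RPKM and Fga 62.6 RPKM, above 96.2% and 89.6% of the genes kept.

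**Figure D1:**
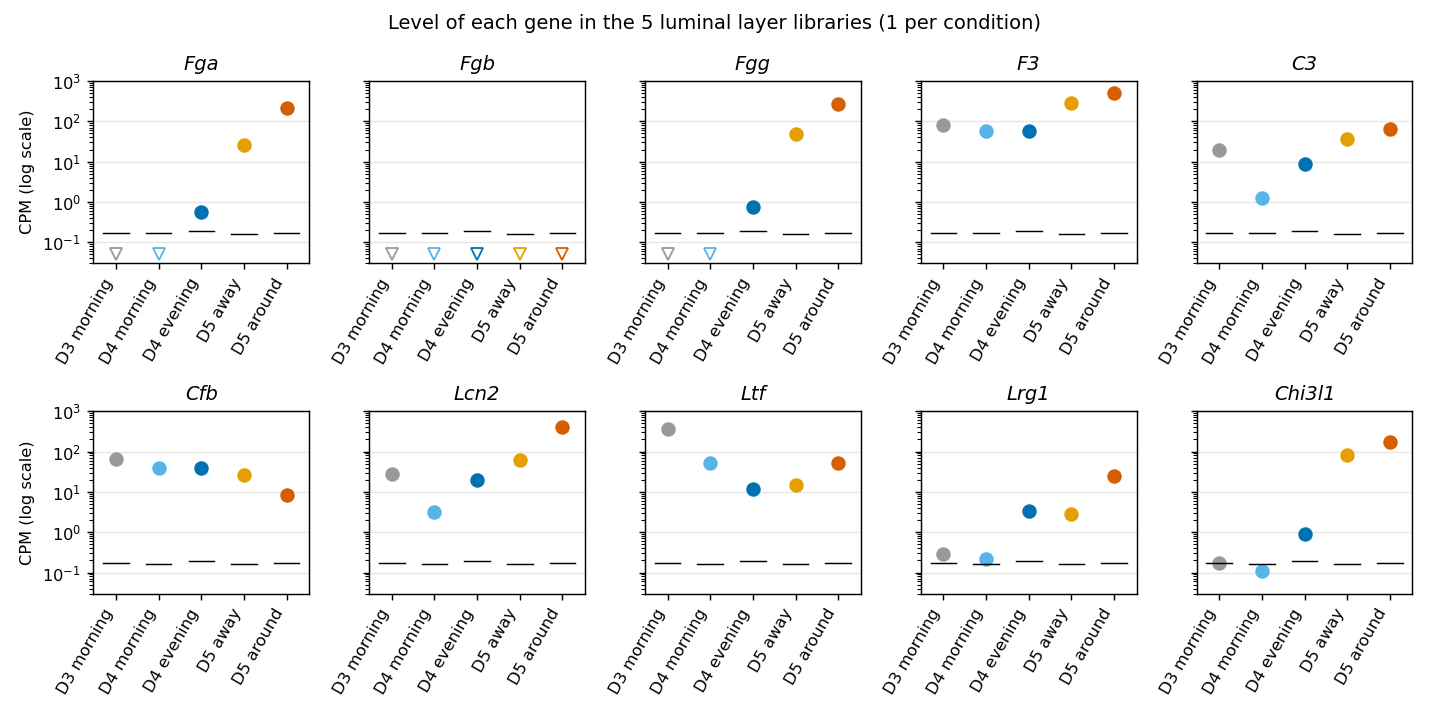
Level of each of the 10 genes in the 5 libraries, in CPM on a log scale, with 1 point per library; short lines mark the level of 3 counts in each library and open triangles mark libraries with 0 counts. Fga and Fgg appear in D4 evening and reach 210.2 and 265.4 CPM in D5 around, Fgb stays at 0 throughout, and of the 9 genes with counts Cfb alone has its lowest point in D5 around.

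The hepatocyte markers were at or near 0 in these libraries. The 8 markers Alb, Apoa2, Ahsg, Apoh, Serpina1a, Cyp2e1, Cps1 and Ambp summed to between 0.322 CPM in D5 away and 1.45 CPM in D5 around, with Ahsg and Ambp at 0 in all 5 libraries and 4 to 6 of the 8 at 0 in each. The embryo markers moved with Fga and Fgg in D5 around, and their part in the difference between the day 5 layers was not tested. In D5 away, where Fga had 490 and Fgg 925 counts against 0 in D4 morning, the 10 markers summed to 7.24 CPM against 13.4 CPM in D4 morning. Of the 10, Pou5f1, Cdx2, Gata4, Nanog, Hand1 and Afp were at 0 there. Tfap2c had 79 counts against 15 in D4 morning, over 2-fold higher, while Gata6 had 20 against 14, Eomes 26 against 62 and Elf5 10 against 148. As everywhere in such bulk samples, fewer cells of a type and less RNA per cell cannot be told apart.

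Other genes within 200 kb of the fibrinogen genes were few. Plrg1, on the far side of Fgb, encodes a splicing factor and had 416, 383, 496, 593 and 960 counts from D3 morning to D5 around. Lrat, on the far side of Fgg, encodes the enzyme that stores retinol as retinyl ester and was singled out after its values were seen. Lrat had 6 counts in D3 morning, 2 in D4 morning, 844 in D4 evening, 1960 in D5 away and 8262 in D5 around. It was thus well above the floor in D4 evening, when Fga and Fgg had 9 and 12 counts. Rbm46 and 4930564K09Rik had at most 4 counts in any library.

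**Figure D2:**
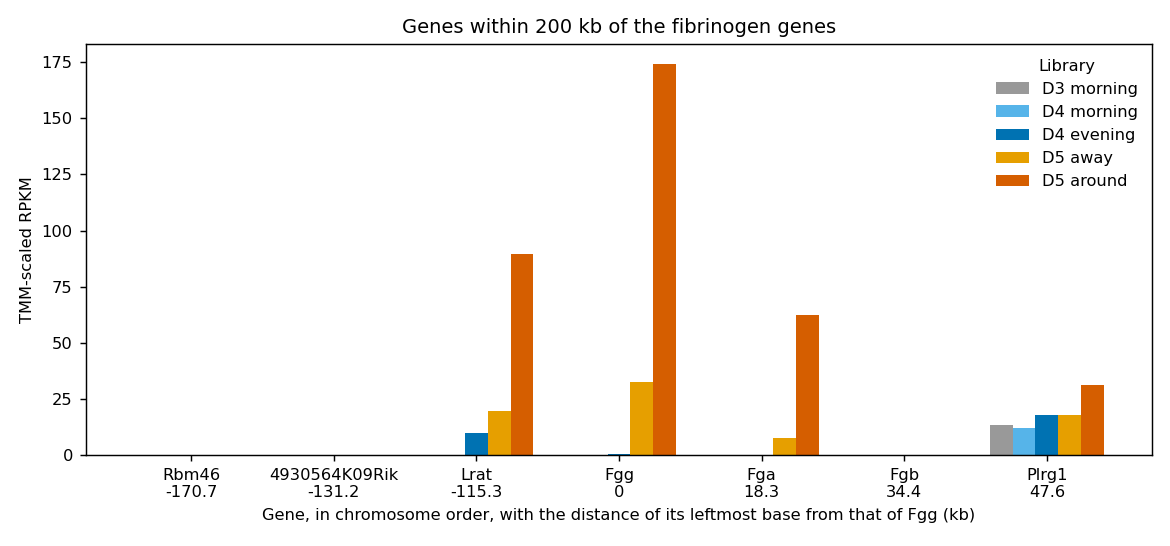
Level of the genes within 200 kb of the fibrinogen genes, in TMM-scaled RPKM on a linear axis from 0, with 1 bar per library, in chromosome order and with the distance from Fgg in kb under each name. Lrat, Fgg and Fga have their highest bars in D5 around, at 89.7, 174.3 and 62.6 RPKM, while Fgb between Fga and Plrg1 has none.

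F3, which encodes tissue factor (chr3:121723537-121735052), was present in every library. It had 1385 counts in D3 morning, 1010 in D4 morning, 932 in D4 evening, 5472 in D5 away and 8696 in D5 around. Both day 5 layers were above all earlier times. The lowest pair, D4 evening and D4 morning, did not differ beyond counting error (log2 difference 0.07, -0.06 to 0.20). Against D4 morning, F3 was 5.22-fold higher in D5 away (log2 difference 2.38, 2.29 to 2.48) and 8.98-fold higher in D5 around (3.16, 3.07 to 3.26). D5 around was 1.72-fold above D5 away (0.78, 0.73 to 0.83), under 2-fold. At 269.1 RPKM in D5 around, F3 was second only to Lcn2 among the 10 genes per length.

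Of the 2 complement genes, C3 was highest and Cfb lowest in D5 around. C3 (chr17:57203973-57228136) had 348 counts in D3 morning, 22 in D4 morning, 141 in D4 evening, 699 in D5 away and 1116 in D5 around. Its level thus had a trough in D4 morning, 16.4-fold below D3 morning (log2 difference -3.91, -4.72 to -3.41). By D4 evening it was 7.28-fold above the trough (2.75, 2.21 to 3.58), before the day 5 layers. Compared with D4 morning, C3 was 30.6-fold higher in D5 away (4.81, 4.33 to 5.62) and 52.9-fold higher in D5 around (5.60, 5.12 to 6.41). Per length, C3 remained modest, at 12.6 RPKM in D5 around, above 64.2% of the genes kept.

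Cfb, which encodes complement factor B (chr17:34856374-34862514), had 1105 counts in D3 morning, 689 in D4 morning, 627 in D4 evening, 482 in D5 away and 144 in D5 around. Its levels in D4 morning and D4 evening did not differ beyond counting error (log2 difference 0.05, -0.11 to 0.21), and the other neighbours in its order did. In D5 away, Cfb differed from D4 morning by -0.57 on the log2 scale (-0.74 to -0.40), under 2-fold. In D5 around the difference was -2.18 (-2.47 to -1.94), and against D5 away -1.61 (-1.91 to -1.36). Cfb and C3 therefore lay on opposite sides of 0 in both comparisons with D4 morning and between the day 5 layers.

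Lcn2 encodes lipocalin 2, which binds the iron carriers of bacteria (chr2:32384637-32387739). It had 481 counts in D3 morning, 58 in D4 morning, 305 in D4 evening, 1135 in D5 away and 7123 in D5 around. As for C3, D4 morning was the trough, 8.58-fold below D3 morning (log2 difference -3.06, -3.52 to -2.71). Lcn2, set against D4 morning, was 18.8-fold higher in D5 away (4.19, 3.85 to 4.64) and 128.1-fold higher in D5 around (6.95, 6.63 to 7.40). Between the day 5 layers it was 6.80-fold higher in D5 around (2.76, 2.67 to 2.86). At 484.9 RPKM there, it lay above 99.0% of the genes kept and was the highest of the 10 genes per length.

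Ltf encodes the iron-binding protein lactoferrin (chr9:111019292-111042766) and had its peak in the earliest library. It had 6232 counts in D3 morning, 932 in D4 morning, 186 in D4 evening, 281 in D5 away and 874 in D5 around. D4 morning was 6.91-fold below D3 morning (log2 difference -2.79, -2.89 to -2.69), and D4 evening a further 4.41-fold lower (-2.13, -2.38 to -1.91). D5 around did not differ from D4 morning beyond counting error (-0.03, -0.17 to 0.10), whereas D5 away was lower (-1.78, -1.98 to -1.59). Between the day 5 layers Ltf was 3.37-fold higher in D5 around (1.74, 1.56 to 1.95). With 130.9 RPKM in D3 morning, Ltf was the highest of the 10 genes at that time.

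Lrg1 encodes a leucine-rich glycoprotein of the plasma that acts in transforming growth factor β signalling (chr17:56119678-56121946). It had 5 counts in D3 morning, 4 in D4 morning, 52 in D4 evening, 54 in D5 away and 426 in D5 around. Its levels in D4 evening and D5 away did not differ beyond counting error (log2 difference -0.18, -0.76 to 0.39), nor did those of the earlier mornings. From D4 morning to D4 evening the difference was 3.33 (2.44 to 5.81), or 14.8-fold. In D5 around, Lrg1 was 8.54-fold above D5 away (3.05, 2.68 to 3.53).

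Chi3l1 encodes a chitinase-like glycoprotein without enzyme activity (chr1:134182404-134190031, Chil1 in GENCODE vM21). It had 3 counts in D3 morning, 2 in D4 morning, 14 in D4 evening, 1498 in D5 away and 2944 in D5 around. Its order was that of Fga and Fgg, with a smaller step between the day 5 layers (2.13-fold, log2 difference 1.09, 1.00 to 1.18, or 0.78 and under 2-fold with library totals in place of TMM). The difference from D4 morning was 8.47 in D5 away (7.64 to 12.54) and 9.56 in D5 around (8.73 to 13.63), where the intervals are wide because of the 2 counts in D4 morning. From D4 evening, with 14 counts, it was 6.33 in D5 away (5.75 to 7.38). GENCODE vM21 gives the type protein-coding for each of the 10 genes, none of which overlaps another gene of the table.

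Lcn2, Ltf, Lrg1 and Chi3l1 are also products of neutrophils. The summed neutrophil markers were highest in D5 around, as were Lcn2, Lrg1 and Chi3l1, whereas Ltf was highest in D3 morning. Of the 10 neutrophil markers, 9 were in the table, and their summed level was 63.3 CPM in D5 around against 1.34 to 3.73 CPM in the other 4 libraries. Of this sum, 55.5 CPM came from S100a8, which epithelia also express, and 80 counts were of Cxcr2. S100a9 had 35 counts in D5 around, and Csf3r had 16 there and 16 in D5 away. Elane, Ngp and Camp, which mark the granules, were at 0 in all 5 libraries, and Mpo had 5 counts in D5 around and 0 elsewhere. The part of these cells in the level of the 4 genes in D5 around was not tested. In D5 away, where the neutrophil markers had their lowest sum, Lcn2 had 1135 counts, Chi3l1 1498, Lrg1 54 and Ltf 281, against 58, 2, 4 and 932 in D4 morning, so that Ltf alone of the 4 was lower.

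Across the comparisons, the 10 genes stood mostly on the higher side in the day 5 layers. From D4 morning to D5 away, 7 of the 10 were higher by over 2-fold, against 14.9% of the 12915 genes kept, and 1, Ltf, was lower, against 14.3%. Their median log2 difference was 3.67, with Fgb counted as 0, against 0.00 over all genes kept. In D5 around, 7 were higher (20.7% of all genes) and 1, Cfb, was lower (22.6%), with a median of 5.90 against -0.03. These shares stand beside counts of genes chosen with such results known, so nothing is read from them about the group.

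In the other comparisons the counts were as follows. Between the day 5 layers, 6 genes were higher in D5 around by over 2-fold (13.4% of all genes), and 1, Cfb, was lower (15.0%), with a median of 1.42. From D4 evening, 6 were higher in D5 away (12.9%) and 0 lower (12.7%), while 8 were higher in D5 around (19.1%) and 1 lower (20.7%). The medians of these were 1.86 and 2.98, on the same log2 scale. From D4 morning to D4 evening, 6 were higher (7.21%) and 1, Ltf, was lower (6.95%), with a median of 2.34, or 1.96 with Fga and Fgg at their bounds. On the log2(RPKM + 1) scale only 3 of these 6, C3, Lcn2 and Lrg1, were past 2-fold. From D3 to D4 morning, 0 were higher (7.47%) and 3, C3, Lcn2 and Ltf, were lower (11.5%), with a median of -0.42. These 7 comparisons share libraries and are not independent of each other.

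**Figure D3:**
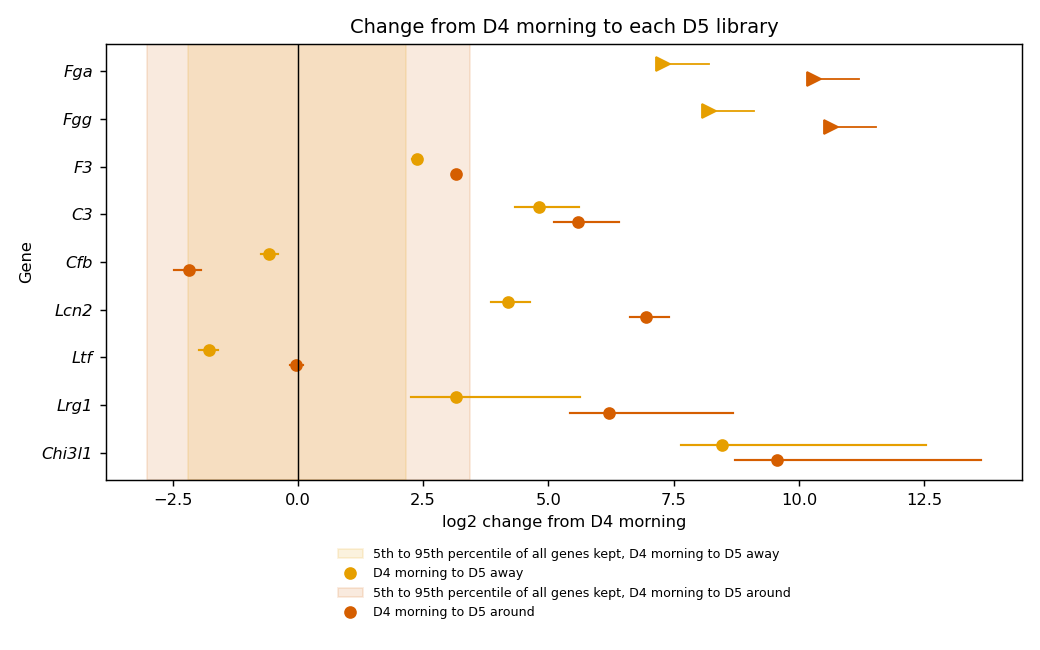
Log2 difference of 9 genes from D4 morning to D5 away (yellow) and D5 around (orange), with exact 95% intervals of counting error. Arrowheads for Fga and Fgg mark folds set against 3 counts in D4 morning. Shaded bands span the 5th to the 95th percentile of all genes kept. F3, C3, Lcn2, Lrg1 and Chi3l1 lie above the band of D5 away at 2.38, 4.81, 4.19, 3.16 and 8.47, whereas Cfb and Ltf lie at or below 0.

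To place the 10 genes in their pathways, 141 further genes were grouped in 8 lists, of which 80 were kept, 28 had at most 3 counts in every library and 33 were below the filter. The lists were drawn up with earlier results of these libraries known. Over all 8 lists, 34 of 80 genes were higher and 16 lower by over 2-fold from D4 morning to D5 away, 38 and 19 to D5 around, and 29 and 22 between the day 5 layers. Over all genes kept, 14.9% were higher and 14.3% lower in D5 away, 20.7% and 22.6% in D5 around, and 13.4% and 15.0% between the day 5 layers. Since the lists were drawn up with results known, nothing is read from a list's count against these shares.

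The remaining coagulation factors were mostly at low counts. Of 16, F5, Fgl2, Kng1 and Kng2 were kept, 6 were counted but below the filter, and F7, F9, F10, F11, F12 and F13b had at most 3 counts in every library. The gene of prothrombin, F2, had 0, 0, 1, 0 and 13 counts. Compared with D4 morning, 3 of the 4 kept were higher in D5 away (14.9% of all genes kept) and 4 in D5 around (20.7%). Kng1, which encodes the precursor of the kinins, had 0 counts at the 3 earlier times, 805 in D5 away and 559 in D5 around. Set against 3 counts in D4 morning, it was 258-fold and 194.3-fold higher. Kng1 and Kng2 are close copies, and how reads that match both were counted is not given in the sources used here, so their split is uncertain. Fgl2, a fibrinogen-like enzyme that cleaves prothrombin, was different in place. It had 217 counts in D4 morning, 201 in D5 away and 2824 in D5 around (log2 difference 3.91 between the day 5 layers, 3.72 to 4.14).

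Of 12 anticoagulants and thrombin receptors, 7 were kept, and 6 were higher in D5 away (14.9% of all genes kept) and 5 in D5 around (20.7%), with 0 lower in either (14.3% and 22.6%). Thbd encodes thrombomodulin, which turns thrombin into an anticoagulant enzyme. It had 129, 50, 399, 1048 and 4370 counts in the order of the libraries, a log2 difference from D4 morning of 4.28 in D5 away (3.93 to 4.77) and 6.45 in D5 around (6.11 to 6.94). The thrombin receptor gene F2r differed by 1.90 and 1.68, so that it was past 2-fold in both layers. F2rl1, the receptor of trypsin-like proteases, differed by 1.34 in D5 away, and by 1.16 in D5 around. Pros1, which encodes protein S, had 214 counts in D4 morning, 530 in D5 away and 584 in D5 around, with log2 differences of 1.25 and 1.50.

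In the plasminogen system and among the transglutaminases that crosslink fibrin, 7 of 11 genes were kept. Of these, 6 were higher and 1 lower in D5 around (20.7% and 22.6% of all genes kept). In D5 away 3 were higher and 3 lower (14.9% and 14.3%). Plg, the plasminogen gene, had 0 counts throughout. Plat, which encodes tissue plasminogen activator, had 13075, 3889, 5377, 638 and 954 counts, a log2 difference from D4 morning of -2.66 in D5 away and -1.96 in D5 around. Plaur, the urokinase receptor gene, differed in the other direction, by 3.44 and 6.65. Tgm2, the tissue transglutaminase gene, had 382 counts in D4 morning, 1171 in D5 away and 6675 in D5 around. Its log2 difference was 4.18 in D5 around from D4 morning and 2.62 between the day 5 layers. Serpine2, an inhibitor of thrombin and plasminogen activators, had 4726, 1053 and 10042 counts in these 3 libraries.

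**Figure D4:**
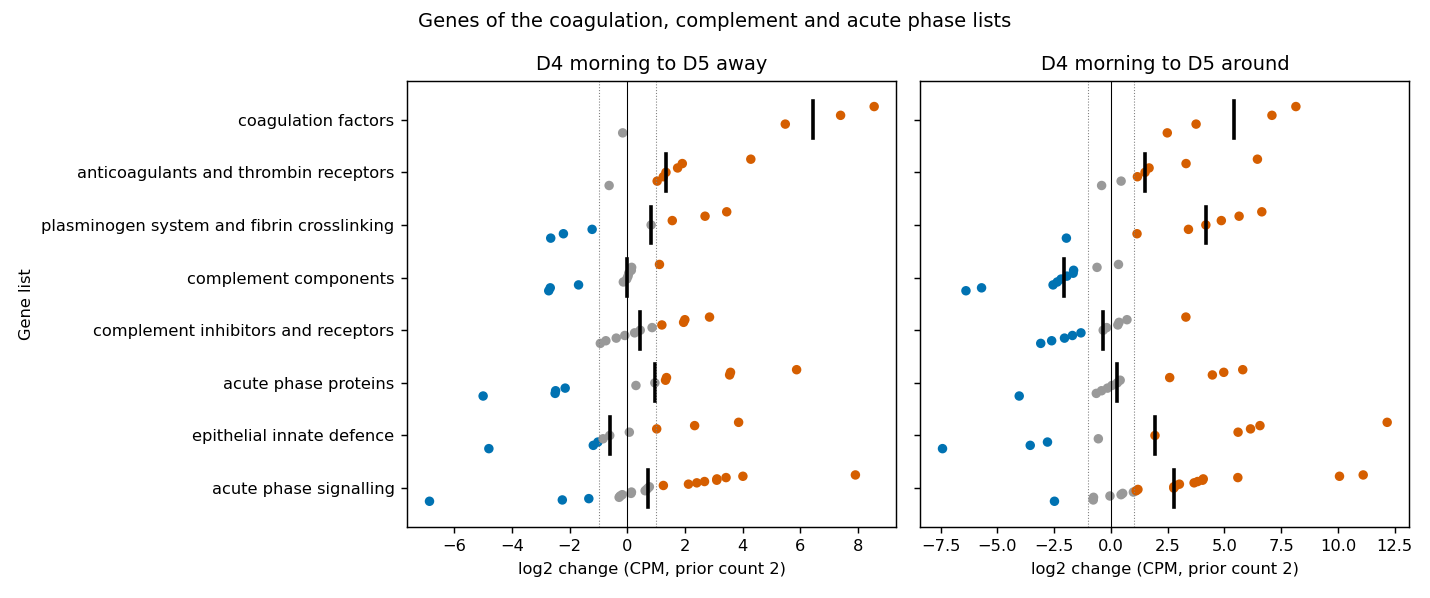
Log2 difference of the kept genes of 8 pathway lists from D4 morning to D5 away (left) and D5 around (right); each point is a gene, coloured beyond 2-fold (dotted lines), and black bars are list medians. The complement components have medians of 0.00 in D5 away and -2.07 in D5 around, while the plasminogen list has medians of 0.82 and 4.18.

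Apart from C3 and Cfb, 10 of 23 complement components were kept, and in D5 around 8 of the 10 were lower than in D4 morning (22.6% of all genes kept) and 0 higher (20.7%). In D5 away 3 were lower (14.3%) and 1 higher (14.9%), and the median log2 difference was 0.00 there and -2.07 in D5 around, against 0.00 and -0.03 for all genes kept. C1qa, C1qb and C1qc, which encode the chains of the first component C1q, had 552, 1025 and 787 counts in D4 morning, 582, 1100 and 805 in D5 away and 101, 166 and 163 in D5 around. Between the day 5 layers they differed by -2.39, -2.60 and -2.18 on the log2 scale. They are also macrophage markers and belong to the 8 such markers, which summed to 68.6 CPM in D5 around against 124.5 to 171.8 CPM elsewhere. Between the day 5 layers 7 of the 8 were lower by over 2-fold. The remaining marker, Cd68, was higher, with 220 counts in D5 away and 670 in D5 around, and made 38.9 CPM of the sum there. The part of these cells in the lower C1q counts was not tested. The late components C6, C7 and C8a had 0 counts in all libraries, and so did Mbl1, Mbl2 and Masp2.

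Of 16 complement inhibitors and receptors, 11 were kept. In D5 away 4 were higher and 0 lower than in D4 morning (14.9% and 14.3% of all genes kept). In D5 around 1, Clu, was higher and 5 were lower (20.7% and 22.6%). Cd55, which encodes a membrane protein that breaks up the C3-cleaving enzyme, had 3520 counts in D4 morning, 14553 in D5 away and 1348 in D5 around, a difference of -3.32 between the day 5 layers (-3.40 to -3.24). Serping1, the C1 inhibitor gene, had 3163, 12690 and 3884 counts in these libraries and was past 2-fold in D5 away. Clu, which encodes clusterin, an inhibitor of the terminal complex, had 667, 1256 and 6318 counts, and was 5.45-fold higher in D5 around than in D5 away. The gene of the C3a receptor, C3ar1, had 372, 295 and 40 counts. Of the 8 macrophage markers, 7 were also lower in D5 around than in D5 away and 1 was higher. The part of these cells in the C3ar1 counts was not tested.

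The acute phase proteins of the liver did not share one direction. Of 26, 11 were kept, with 5 higher and 4 lower in D5 away (14.9% and 14.3% of all genes kept). In D5 around 4 were higher and 1 lower (20.7% and 22.6%), and the medians were 0.95 and 0.28. Saa1, Saa4, Apcs, Itih3 and Itih4 had 0 counts in every library, and Crp had 12 counts in D4 morning and 0 elsewhere. Steap4, a metal reductase gene, had 34 counts in D4 morning, 435 in D5 away and 1932 in D5 around, so that it was past 2-fold in both. Cp, which encodes ceruloplasmin, was instead highest in D5 away, with 383, 4766 and 487 counts. Cd14, the lipopolysaccharide co-receptor gene, had 16159, 3761 and 938 counts in these libraries, and differed by -4.04 in D5 around from D4 morning. Serpina1b, one of several close copies of the α1-antitrypsin gene, had 311, 8 and 362 counts.

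Among 14 genes of epithelial innate defence, 9 were kept, with 3 higher and 3 lower in D5 away (14.9% and 14.3% of all genes kept). In D5 around 5 were higher and 3 lower (20.7% and 22.6%). Tmprss11d, which encodes an airway trypsin-like protease of epithelia, had 2 counts in D4 morning, 59 in D5 away and 17944 in D5 around, a log2 difference of 8.31 between the day 5 layers (8.00 to 8.76). S100a8, a calcium-binding protein gene that is also a neutrophil marker, had 12, 6 and 955 counts. Lyz1, a lysozyme gene with the close copy Lyz2, went the other way with 889, 31 and 3 counts. Pigr, the receptor that carries immunoglobulins across the epithelium, had 894 counts in D4 morning and 408 in D5 away (-1.18, -1.36 to -1.02).

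Of 23 genes of acute phase signalling, 21 were kept, with 9 higher and 3 lower in D5 away (14.9% and 14.3% of all genes kept) and 13 higher and 1 lower in D5 around (20.7% and 22.6%). The medians were 0.71 and 2.77. Il1a, which encodes interleukin 1α, had 1 count in D4 morning, 41 in D4 evening, 761 in D5 away and 6503 in D5 around. Il11, an interleukin 6 family cytokine gene of the decidua, had 8 counts in D4 morning, 15 in D5 away and 10358 in D5 around. Il6 itself had 238 counts in D4 morning, 0 in D5 away and 39 in D5 around, and was therefore lower in both layers than before. Osmr, the oncostatin M receptor gene, had 66, 1133 and 3140 counts, with log2 differences of 4.01 and 5.59 from D4 morning.

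**Figure D5:**
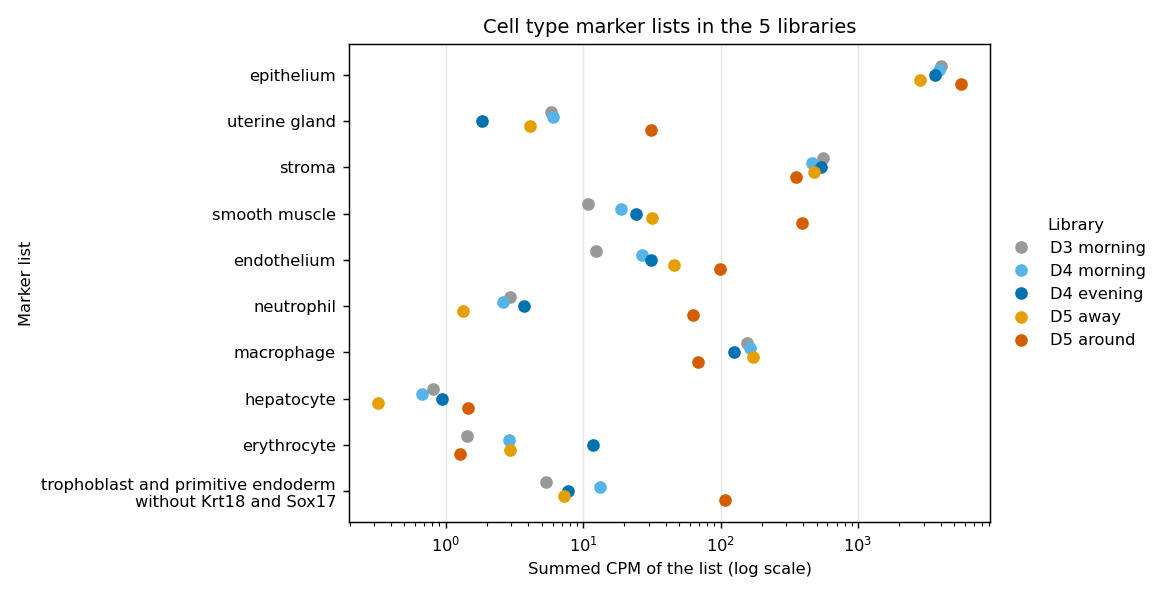
Summed level of 10 lists of cell type markers in the 5 libraries, in CPM on a log scale, with 1 point per library. The epithelial list lies between 2843 and 5632 CPM in every library and the hepatocyte list at or below 1.45 CPM, while the neutrophil, smooth muscle and embryo lists have their highest points in D5 around.

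Genes outside the 10 with a like profile were sought by the root mean square distance between log2 CPM profiles, each centred on its own mean over the 5 libraries, over the 8834 genes that averaged 10 CPM or more. The distance of Fga to Fgg was 0.33. The nearest other gene to both was Atp13a4, which encodes a P-type ATPase, at 0.56 from Fga and 0.29 from Fgg. Atp13a4 had 0, 1, 13, 1588 and 5928 counts, so its first clear counts were in D4 evening too. The next were C330005M16Rik for Fga (1.04) and Agtr2 for Fgg (1.03), and Agtr2, an angiotensin receptor gene, was also the nearest to Chi3l1 (0.50), followed by Hal (0.68).

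For C3, the nearest genes were Ldlrad3 (0.41) and Elovl7 (0.45), and for Lcn2 they were Lrrc8b (0.39) and Ttc9 (0.41). C3 and Lcn2 were the nearest to each other among the 10 genes, at 0.77. For F3, the nearest were Ftx (0.22) and Atp8a1 (0.23). For Cfb they were Mpc1 (0.12) and Zfp932 (0.13), for Ltf Sema3a (0.52) and Slco3a1 (0.67), and for Lrg1 Prss22 (0.36) and Car12 (0.39). Of the 9 genes with counts, Cfb had the nearest first and second neighbours, and the second neighbours of Fga and Fgg lay farthest away. The profiles were centred but not scaled, so the size of a gene's differences enters the distance as well as their pattern. The distances describe 5 libraries and carry no test.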

How the data were processed

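RNA of laser-microdissected luminal layers was extracted with the NucleoSpin RNA kit and amplified with the SMART-seq v.4 kit. According to the paper's methods and the submitters' processing notes, the authors aligned paired-end reads to GRCm38/mm10 with HISAT2 and counted them per gene with featureCounts of Subread 2.0.0. The deposited values were raw counts, without normalization, for 23420 genes in 5 libraries. The annotation release, strand setting and handling of reads with several alignments are not given in the sources used here. The names of 27 genes had the form of dates and were kept as they were.

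Groups came from the labels, with 1 library per condition, so no p-value was computed. Total counts were 15334674 to 19529491, at which 3 counts equal 0.161 to 0.190 CPM. Counts were scaled by TMM (edgeR 4.0.16 in R 4.3.3), and 12915 genes that averaged 1 CPM or more were kept. Differences are on the log2 CPM scale (prior count 2), "over 2-fold" means a log2 difference beyond 1, and the 95% Clopper-Pearson intervals of count ratios cover counting error only. Where a library had 0 counts, a fold was set against 3 counts and called a bound, with the other count taken as exact. RPKM used the exonic lengths in the table. Calls were checked on simulated Poisson counts for the D4 morning and D5 away libraries. In these, 98.0% of 100 changes of 3-fold were recovered, with 12 calls among 12715 unchanged genes. The simulation held counting error only, so it cannot show how often differences between mice, dissections or amplifications pass 2-fold. Python 3.11.15, numpy 2.4.6, pandas 2.3.3, scipy 1.17.1 and matplotlib 3.10.9 were used.

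The 10 genes, the 8 pathway lists and the 10 marker lists were chosen with earlier results of these data known. All 10 genes are named. From each pathway list, up to 3 genes were named in each of 3 comparisons, from D4 morning to each day 5 layer and between these layers, as those with the largest change past 2-fold and an average of 10 CPM or more. Genes at or under 3 counts in every library were named as not detected, and other genes of the lists were named after their values were seen. A gene of the pathway lists and an epithelial marker were left out of the lists and are not reported here. For likeness, the 2 nearest genes were named. Of the list symbols, 5 were matched through older symbols in RefSeq, and promoter sequences came from RefSeq GRCm38.p6. Alternatives were DESeq2 1.42.0 size factors, library totals with and without Rn45s and Lars2, a prior count of 0.5, log2(RPKM + 1), other filters and a fold of 4.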

Additional observations from a re-analysis of the deposited data

Results flagged for a closer look

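For 2 genes of the pathway lists, the differences from D4 morning lay on opposite sides in the 2 day 5 layers, each past 2-fold. Serpine2 differed by -2.22 on the log2 scale in D5 away and by 1.15 in D5 around. Cd55 differed by 1.99 in D5 away and by -1.32 in D5 around. With 1 library per condition these contrasts were not tested, and both share the D4 morning library.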

How the results depend on the processing

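No paired analysis was possible because each condition has 1 library, and no library could be left out for the same reason. Under the scalings, the prior count of 0.5 and log2(RPKM + 1), no median over the 10 genes changed sign, and of the single genes only 2 near 0 did. Ltf from D4 morning to D5 around went from -0.03 to 0.02 with DESeq2 size factors, and Lrg1 from D4 evening to D5 away from -0.18 to 0.04 with library totals. DESeq2 size factors moved no difference of a member by more than 0.06 on the log2 scale and library totals by no more than 0.31. A prior count of 0.5 moved them by up to 2.0 and log2(RPKM + 1) by up to 4.85, most for Fga and Fgg against the 0 counts of D4 morning, so that log2 values and ranks of these depend on the prior count. Library totals shifted the median of all genes by 0.28 from D4 morning to D5 away, -0.31 between the day 5 layers, -0.29 from D3 to D4 morning and 0.22 from D4 evening to D5 away. Of the calls, 65.8% were then on the higher side instead of 51.1% in D5 away, 31.5% instead of 47.2% between the day 5 layers (32.9% without Rn45s and Lars2), 64.0% instead of 50.5% from D4 evening, and 19.6% instead of 39.5% from day 3 (29.2% without Rn45s and Lars2). Chi3l1 between the day 5 layers was then under 2-fold, at 0.78 (0.80 without Rn45s and Lars2), and Cfb from D3 to D4 morning was past it, at -1.03.

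On the log2(RPKM + 1) scale, which compresses low values, 3 members instead of 6 were higher from D4 morning to D4 evening, since Fga (0.23), Fgg (0.58) and Chi3l1 (0.52) were under 2-fold. At a fold of 4, 0 members were lower in D5 away and 0 between the day 5 layers. The counts over all genes under these settings are in the next paragraph. Nothing is read from the member counts against them. The median over the 9 members with counts was 4.19 in D5 away and 6.20 in D5 around, an alternative added after the data were seen.

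Counts over all genes are given as higher and lower. At a fold of 4 they were 742 and 749 from D4 morning to D5 away, 1358 and 1292 to D5 around, 757 and 641 between the day 5 layers, 571 and 583 from D4 evening to the layer away, 1152 and 1120 to the layer around, 308 and 180 from D4 morning to evening, and 154 and 531 from D3 to D4 morning. On log2(RPKM + 1) they were 1180 and 1221 to the layer away, 948 and 1044 there from D4 evening, 372 and 299 over day 4 and 409 and 753 from day 3, with 936 lower between the day 5 layers and 1714 lower from D4 evening to the layer around. With no filter, 4321 were higher from D4 morning to the layer around, 3110 between the day 5 layers and 4029 from D4 evening to the layer around, and the pairs were 2526 and 2623 from D4 evening to the layer away, 1932 and 1653 over day 4 and 1686 and 2682 from day 3. With a filter at an average of 5 CPM, 550 and 465 were called over day 4, 566 and 872 from day 3, and 1264 were lower between the day 5 layers. With library totals, 538 were higher from D3 to D4 morning. In the pathway lists, 26 genes were lower in D5 away and 29 in D5 around with no filter, and at a fold of 4, 20 were higher in D5 away and 13 lower between the day 5 layers. The cause of these shifts was not tested, beyond fewer or more genes passing a changed threshold or filter.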

Other observations

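Some regulators of the acute phase response were outside the naming rule and were chosen after their values were seen. Cebpd, which encodes the factor C/EBPδ, had 638 counts in D3 morning, 1332 in D4 morning, 6022 in D4 evening, 7344 in D5 away and 16185 in D5 around. Cebpb, which encodes C/EBPβ, had 2510, 2275, 3975, 10262 and 17643 counts in the same order. Socs3, the inhibitor of Jak and Stat signalling, had 58, 174, 1426, 432 and 2767 counts, so that it was lower in D5 away than in D4 evening. Stat3 had 1640, 4040, 4312, 6678 and 8830 counts. The NF-kB genes of the same list did not share 1 direction. From D4 morning to D5 around, Nfkb1 differed by -0.05, Rela by 0.52, Nfkbia by -0.77 and Nfkbiz by 1.11 on the log2 scale.

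Genes of inhibitors of inflammation and proteolysis also differed between the day 5 layers, and were likewise chosen after their values were seen. Slpi, a secreted leukocyte protease inhibitor gene, had 22, 6, 0, 40 and 730 counts, and Il1rn, the interleukin 1 receptor antagonist gene, had 70, 20, 1, 26 and 466. The complement genes C2 and C9 went the other way, with 214 and 171 counts in D4 morning, 33 and 25 in D5 away and 2 and 0 in D5 around. Serpina3n had 0 counts at the 3 earlier times, 123 in D5 away and 60 in D5 around.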
